A study of Oryctolagus cuniculus with 34 samples.

Results

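The proteasome subunit genes are the genes whose names in the deposited count files are PSMA, PSMB, PSMC, PSMD or PSME followed by a number. Of 18176 genes counted, 40 had such a name, and 39 of these reached a CPM (counts scaled to library size) of at least 1 in at least 4 of the 34 libraries. The 39 members were 12 standard core subunits, 5 genes of the immunoproteasome, 17 subunits of the regulatory particle, 3 chaperones that assemble its base, and 2 other activators. PSMB9 lay closest to the limit, with 12 libraries at 1 CPM or more, followed by PSMB8 with 27. The other 37 members reached it in all 34 libraries. PSMA8, a testis form of an alpha subunit, had 0 counts in every library and was left out, where 3 counts would have been 0.0928 to 0.238 CPM. The standard subunit PSMB7 carried no such name. The entry LOC100349446 is PSMB7 by its RefSeq gene number and is given beside the members, as the PSMB7 entry. PSMA7 was not analysed here.

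Bulk RNA was sequenced from rabbit supraspinatus, a shoulder muscle that belongs to the rotator cuff. The long-term groups were 5 muscles repaired with a gel of tissue-derived extracellular matrix, 5 with repair only and 10 left uninjured. The short-term groups were 5 muscles repaired with the gel, 5 with repair only and 4 with the injury only. Neither the strain, sex and age of the rabbits nor the kind of injury and the length of each term are known from the labels used here, and the labels do not say whether replicates are separate animals. Without that, p-values measure the spread between libraries, which may be technical.

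The proteasome is the large protease that degrades proteins tagged with ubiquitin. Its core is a barrel of stacked rings, in which alpha subunits form the gates and beta subunits hold the proteolytic sites. The regulatory particle caps the barrel. Its base unfolds substrates with ATPases, and its lid removes ubiquitin. In skeletal muscle this system carries much of the protein breakdown of atrophy. Under interferon, and in many leukocytes without it, PSMB8, PSMB9 and PSMB10 are built into new cores in place of PSMB5, PSMB6 and PSMB7. These immunoproteasomes are known for the peptides they supply to MHC class I, and PSME1 and PSME2 together form an activator cap that is induced with them. In the RefSeq gene order of a rabbit assembly (mOryCun1.1), PSMB9, TAP1, PSMB8 and TAP2 follow each other directly, as they do in the human MHC, and 1 gene, EMC9, lies between PSME2 and PSME1.

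Library totals were 26904529 to 32313295 counts in the 14 short-term and 12582302 to 15019158 in the 20 long-term libraries. The long-term files also carry another kind of column header, which names the aligner, so term, depth and the handling of the reads cannot be told apart. Levels are CPM scaled over all libraries with TMM factors, which spanned 0.725 to 1.52. As gene lengths were not used, levels are compared between libraries and not between genes. In bulk tissue, a change in the number of cells of a type and a change in RNA per cell cannot be told apart. All libraries held much RNA of 6 muscle fibre markers, which summed to 21600 to 217500 CPM in short-term and 78580 to 291900 CPM in long-term libraries. The content of other tissue varied: short-term repair replicate 5 had 25320 CPM of these beside 61190 CPM of fibroblast markers. Short-term repair replicate 1 had 21600 CPM beside 16920 CPM.

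Several libraries stood apart from the rest of their groups. Long-term gel replicate 1 lay outside the range of the other 19 long-term libraries in 29 of 38 members tested (76.3%), and in 63.7% of all genes. For the other 19 libraries the share of members was 0% to 28.9%. In the short term, injury replicate 3 lay below all 13 other libraries in 16 of 39 members and above them in 0, whereas injury replicate 1 lay above all others in 16 and below in 2. Injury replicate 3 had 41130 CPM of muscle fibre markers, against 217500, 212500 and 140300 CPM in injury replicates 1, 2 and 4. Repair replicate 4 had 179300 CPM, against 21600, 54100, 68270 and 25320 CPM in the other repair libraries. Injury replicate 3 and repair replicate 4 had stood apart in earlier results of these data too, and the short-term results are given with and without them. They are not the only ones: over all genes the share outside the range of the other short-term libraries was highest in repair replicate 5 (32.9%), against 22.3% in repair replicate 4 and 18.3% in injury replicate 3. Repair replicate 5 also had 61190 CPM of fibroblast markers, against 1081 to 16920 CPM in the other repair libraries. With or without it, edgeR called 0 members and 0 of all genes tested in either comparison of repair muscles within the short term.

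In the short term the immunoproteasome genes were highest in muscles with the gel, intermediate in muscles with a repair only and lowest in muscles with the injury only, by group mean. The difference between gel and injury was 3.39-fold for PSMB9, 2.92-fold for PSMB8 and 2.81-fold for PSMB10, and 1.65-fold and 1.52-fold for the activator genes PSME2 and PSME1. Regulatory particle genes lay on the other side: 17 of 17 were below 0 in the same comparison. At an adjusted p under 0.05, 0 of 39 members were called in it, as were 0 of all 13526 genes tested (0%), so the differences below are given as values that did not pass. An unadjusted p under 0.05 was reached by 10 members and by 2493 genes in all.

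PSMB8, the inducible counterpart of PSMB5, had 8.09, 9.91, 16.6, 5.25 and 6.98 CPM in the 5 gel libraries, 9.21, 3.91, 3.34, 2.59 and 5.29 CPM in the 5 repair libraries and 2.68, 1.295, 4.96 and 4.03 CPM in the 4 injury libraries. All gel libraries lay above all injury libraries, while gel and repair overlapped: repair replicate 1 lay above 3 of the gel libraries, and repair replicate 5 just above gel replicate 4. The log2 difference was 1.55 ± 0.47, adjusted p = 0.169 (edgeR) for gel against injury and 0.97 ± 0.42, adjusted p = 0.469 for gel against repair.

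PSMB10, the counterpart of PSMB7, had 13.6, 16.7, 32.8, 9.05 and 10.98 CPM in gel, 10.2, 8.73, 8.703, 4.44 and 13.9 CPM in repair and 5.32, 5.43, 7.77 and 5.52 CPM in injury libraries. Gel replicate 3 was the highest of all 34 libraries, and again the gel and injury groups did not overlap. The log2 difference was 1.49 ± 0.38, adjusted p = 0.145 for gel against injury, the smallest adjusted p of any member in that comparison, and 0.89 ± 0.35, adjusted p = 0.429 for gel against repair.

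PSMB9, the counterpart of PSMB6, had 3.39, 3.97, 6.57, 1.64 and 2.41 CPM in gel, 1.81, 1.11, 1.46, 0.987 and 1.66 CPM in repair and 0.1703, 0.752, 1.003 and 2.36 CPM in injury libraries. Here gel and injury overlapped, since injury replicate 4 lay above gel replicate 4. Its log2 difference was the largest of the members, with 1.76 ± 0.58, adjusted p = 0.172 for gel against injury and 1.38 ± 0.52, adjusted p = 0.427 for gel against repair.

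The activator genes differed less. PSME1 had 42.9, 56.6, 57.2, 57.7 and 50.5 CPM in gel, 54.1, 32.5, 43.9, 31.6 and 27.2 CPM in repair and 31.7, 27.8, 46.3 and 36.3 CPM in injury libraries. PSME2 had 34.7, 37.5, 49.6, 27.6 and 37.3 CPM in gel, 24.6, 23.2, 42.1, 19.98 and 24.4 CPM in repair and 23.8, 22.4, 20.96 and 25.4 CPM in injury libraries. For PSME2 the gel and injury groups did not overlap, and for PSME1 gel replicate 1 lay below injury replicate 3. Gel minus injury was 0.72 ± 0.22, adjusted p = 0.169 for PSME2 and 0.60 ± 0.22, adjusted p = 0.191 for PSME1. Gel minus repair was 0.51 ± 0.20, adjusted p = 0.429 for PSME2 and 0.52 ± 0.20, adjusted p = 0.427 for PSME1.

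Across the class, 5 of 5 genes were above 0 in gel against injury (median log2 difference 1.49) and in gel against repair (0.89), where the medians of all genes tested were 0.022 and -0.040. Unadjusted p-values of the 5 genes were 0.00165 to 0.0142 in gel against injury and 0.0195 to 0.0377 in gel against repair, and 0% of all genes tested passed the adjusted threshold in either. In gel against repair 5 members, all of this class, had an unadjusted p under 0.05. So did 1404 of all 13526 genes tested, the PSMB7 entry among them. Neither DESeq2 nor limma voom called any member there (0 of 39), where they called 127 and 3 of all 13526 genes. Of all genes tested, 4.03% had gel libraries all above the injury libraries and 3.33% all below. Among the members these were PSMB8, PSMB10 and PSME2 on the higher side and PSMD12 on the lower. In repair against injury, PSMB10 differed by 0.60 ± 0.37, adjusted p = 0.413, PSMB8 by 0.57 ± 0.45, adjusted p = 0.506, PSMB9 by 0.38 ± 0.56, adjusted p = 0.724, PSME2 by 0.21 ± 0.21, adjusted p = 0.602 and PSME1 by 0.082 ± 0.21, adjusted p = 0.849. All 5 were above 0 but within the spread between libraries, and PSME1 stood at -0.11 without repair replicate 1 and PSME2 at -0.057 without repair replicate 3.

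**Figure D1:**
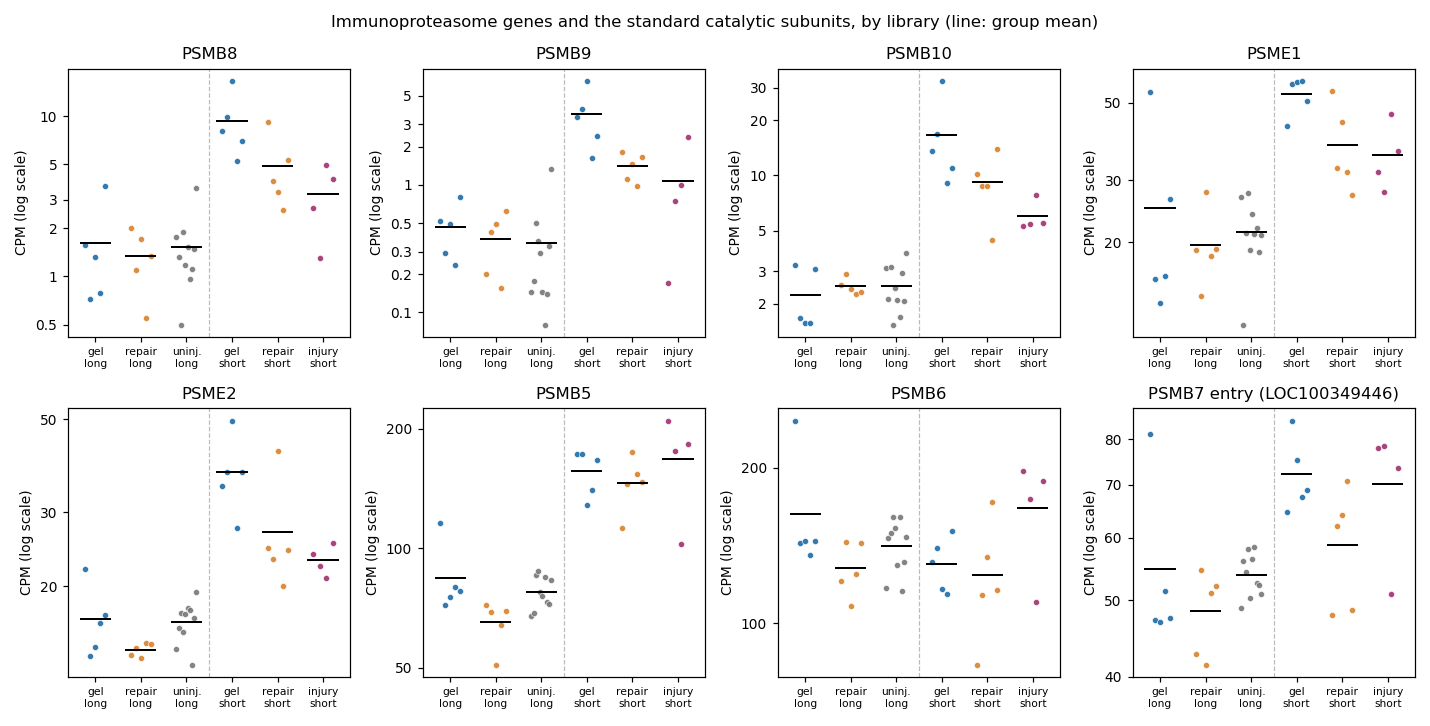
Level of each immunoproteasome gene and of the 3 standard catalytic subunits in every library (CPM, log axis), with long-term groups on the left of the dashed line and short-term groups on the right; each point is 1 library and each bar a group mean. PSMB8, PSMB10 and PSME2 in the 5 short-term gel libraries lay above all 4 injury libraries, and all 20 long-term libraries had under 4 CPM of PSMB8 and of PSMB10.

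Of the standard catalytic subunits, PSMB5 and PSMB6 differed less, and the PSMB7 entry was above 0 in gel against repair. PSMB5, which carries the chymotrypsin-like site, had 173, 173, 129, 139.8 and 167 CPM in gel, 112, 145, 175, 154 and 147 CPM in repair and 209.6, 176, 103 and 183 CPM in injury libraries. The ranges overlapped throughout, and the log2 difference was -0.068 ± 0.20, adjusted p = 0.888 for gel against injury, 0.13 ± 0.19, adjusted p = 0.83 for gel against repair and -0.20 ± 0.20, adjusted p = 0.606 for repair against injury. PSMB6, the caspase-like subunit, had 131, 139.7, 117, 114 and 151 CPM in gel, 83.3, 113, 135, 172 and 116 CPM in repair and 197, 174, 110.2 and 189 CPM in injury libraries. It differed by -0.33 ± 0.21, adjusted p = 0.435 for gel against injury, by 0.12 ± 0.20, adjusted p = 0.859 for gel against repair and by -0.44 ± 0.21, adjusted p = 0.351 for repair against injury. The PSMB7 entry, for the trypsin-like subunit, had 64.7, 84.4, 75.4, 67.5 and 68.9 CPM in gel, 47.9, 62.1, 64.05, 70.8 and 48.6 CPM in repair and 77.97, 78.5, 50.9 and 73.6 CPM in injury libraries. Its log2 difference was 0.072 ± 0.17, adjusted p = 0.8504 for gel against injury, 0.34 ± 0.16, adjusted p = 0.481 (unadjusted p = 0.0499) for gel against repair and -0.26 ± 0.17, adjusted p = 0.421 for repair against injury.

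The ratio of each inducible subunit to the standard one it replaces, taken within a library, is a description with no test. PSMB8 over PSMB5 was 0.0468, 0.0574, 0.129, 0.0375 and 0.0418 in gel, 0.0822, 0.02701, 0.0191, 0.0168 and 0.0361 in repair and 0.0128, 0.00737, 0.0484 and 0.0221 in injury libraries. The highest ratio of the injury group was that of replicate 3, which lay among the gel libraries, and the other 3 injury libraries lay below all of them. PSMB10 over the PSMB7 entry averaged 0.228 ± 0.1202 in gel, 0.167 ± 0.0846 in repair and 0.0913 ± 0.0411 in injury muscles (SD, n = 5, 5 and 4). PSMB9 over PSMB6 averaged 0.0282 ± 0.0169, 0.0125 ± 0.00599 and 0.006705 ± 0.00514 in the same 3 groups. The summed CPM of the 5 immunoproteasome genes was 9.99 ± 1.91% of the sum of core and immunoproteasome genes in gel, 6.98 ± 1.96% in repair and 5.66 ± 2.27% in injury muscles. Gel replicate 3 had the highest of each of these ratios and shares. The share rests mostly on PSME1 and PSME2, which are not core subunits: in gel replicate 1 they had 42.9 and 34.7 CPM of a sum of 102.8 CPM. It also adds up genes without regard to their length, and it does not measure how much of the core is replaced.

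**Figure D2:**
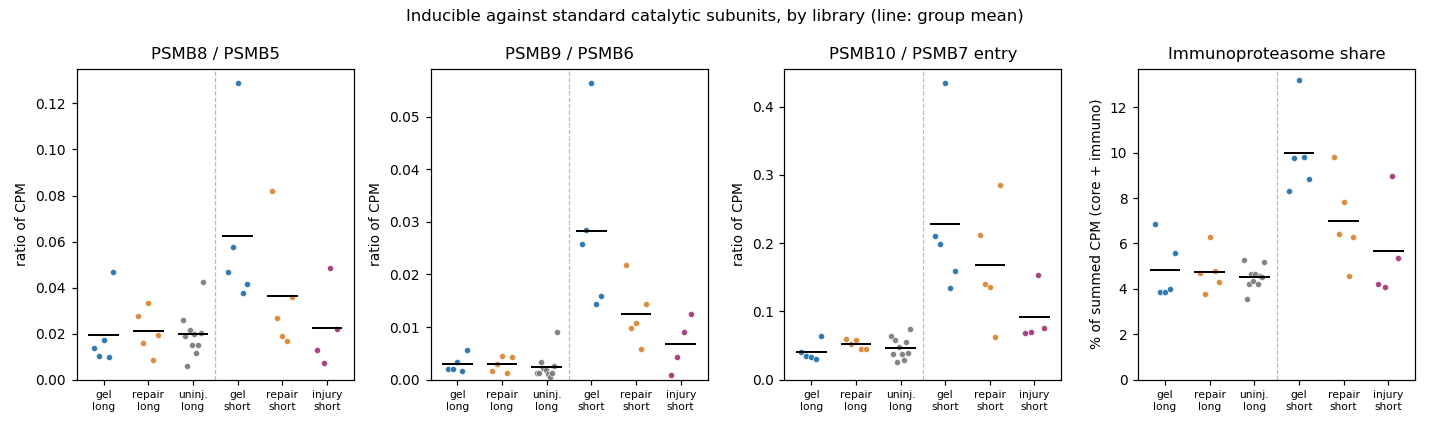
Ratio of PSMB8, PSMB9 and PSMB10 to the standard subunit each replaces, and the share of the 5 immunoproteasome genes in the summed CPM of core and immunoproteasome, in every library; points are libraries, bars group means, long-term groups left of the dashed line. Short-term gel libraries had shares of 8.30% to 13.2%, and the 20 long-term libraries 3.55% to 6.85%.

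By group mean, leukocyte markers were also more abundant in gel than in injury libraries. The summed level of 3 markers of all leukocytes was 51.9, 28.9, 80.99, 17.6 and 17.2 CPM in gel, 46.4, 12.8, 14.99, 3.95 and 32.7 CPM in repair and 7.62, 3.93, 18.4 and 7.85 CPM in injury libraries. The 9 markers of T and NK cells summed to 5.18, 9.16, 29.5, 6.07 and 5.17 CPM in gel, 10.8, 4.48, 3.98, 2.38 and 3.61 CPM in repair and 3.83, 1.88, 6.995 and 8.89 CPM in injury libraries. Gel replicate 3, the highest library for PSMB8, PSMB9, PSMB10 and PSME2, was also the highest for both marker sums. The 10 macrophage and monocyte markers summed to 417, 161, 344, 85.2 and 109 CPM in gel, 407, 115, 201, 21.6 and 372 CPM in repair and 32.7, 21.7, 157 and 45.9 CPM in injury libraries, with the highest value in gel replicate 1. In gel against injury all 3 pan-leukocyte, all 10 macrophage and 7 of 8 T and NK markers tested were above 0 with 0 called, and none of these markers was at 0 counts throughout a short-term group. The part of these markers in the difference was not tested. Without gel replicate 3 the median of the class in gel against injury was 1.05 and the value of PSMB8 1.201.

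With edgeR and all libraries, the standard core as a whole differed little between short-term groups. Other fits called some core genes, as given below. The 12 core genes had a median log2 difference of -0.14 in gel against injury (11 of 12 below 0), 0.054 in gel against repair (5 of 12 below 0) and -0.15 in repair against injury (11 of 12 below 0). The lowest value in gel against injury, -0.61 ± 0.34, belonged to PSMA2, a subunit of the alpha ring. PSMA2 had 61.3, 71.9, 57.2, 54.6 and 13.7 CPM in gel, 64.5, 67.5, 70.1, 84.4 and 60.5 CPM in repair and 97.3, 94.7, 51.3 and 78.2 CPM in injury libraries. A single gel library, replicate 5, accounted for the low end, and the other 4 lay at 54.6 CPM or more.

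The regulatory particle was lower in repaired muscle, with or without the gel, than in muscle with the injury only. This held by the fitted value in every one of its genes, without any call by edgeR with all libraries. In gel against injury 17 of 17 genes were below 0 (median -0.30), in repair against injury 17 of 17 (median -0.23), and in gel against repair 11 of 17 (median -0.099). The first and second of these share the injury libraries. In repair against injury 0 of 39 members and 0% of all genes were called, and 2 members and 1973 of all 13526 genes had an unadjusted p under 0.05. PSMD12, a lid subunit, had 89.97, 90.7, 88.2, 80.1 and 92.2 CPM in gel, 84.6, 97.9, 107, 131 and 95.7 CPM in repair and 148, 164, 97.1 and 136 CPM in injury libraries. All gel libraries lay below all injury libraries, though injury replicate 3 stood at the level of the repair group. The log2 difference of PSMD12 was -0.59 ± 0.17, adjusted p = 0.157 for gel against injury and -0.41 ± 0.17, adjusted p = 0.324 for repair against injury.

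PSMD4, a ubiquitin receptor of the base, had 161, 134, 118, 125 and 174 CPM in gel, 146, 136, 163, 221 and 181 CPM in repair and 289.7, 262, 119 and 250.4 CPM in injury libraries. PSMD7, a lid subunit and partner of the deubiquitinase PSMD14, had 126, 112, 122, 107 and 135 CPM in gel, 117, 114, 147, 160.5 and 138 CPM in repair and 197, 214, 113 and 205 CPM in injury libraries. In both genes 3 injury libraries were the highest of the term and the remaining one, replicate 3, lay among the lowest. Gel minus injury was -0.66 ± 0.24, adjusted p = 0.197 for PSMD4 and -0.57 ± 0.19, adjusted p = 0.172 for PSMD7, and repair minus injury was -0.44 ± 0.19, adjusted p = 0.332 for PSMD7. The base assembly chaperones PSMD5, PSMD9 and PSMD10 lay above 0 in gel against injury (median 0.33). The nuclear activator PSME3 differed by -0.048 ± 0.13 there, and PSME4, the other activator, by -0.53 ± 0.23, adjusted p = 0.243.

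**Figure D3:**
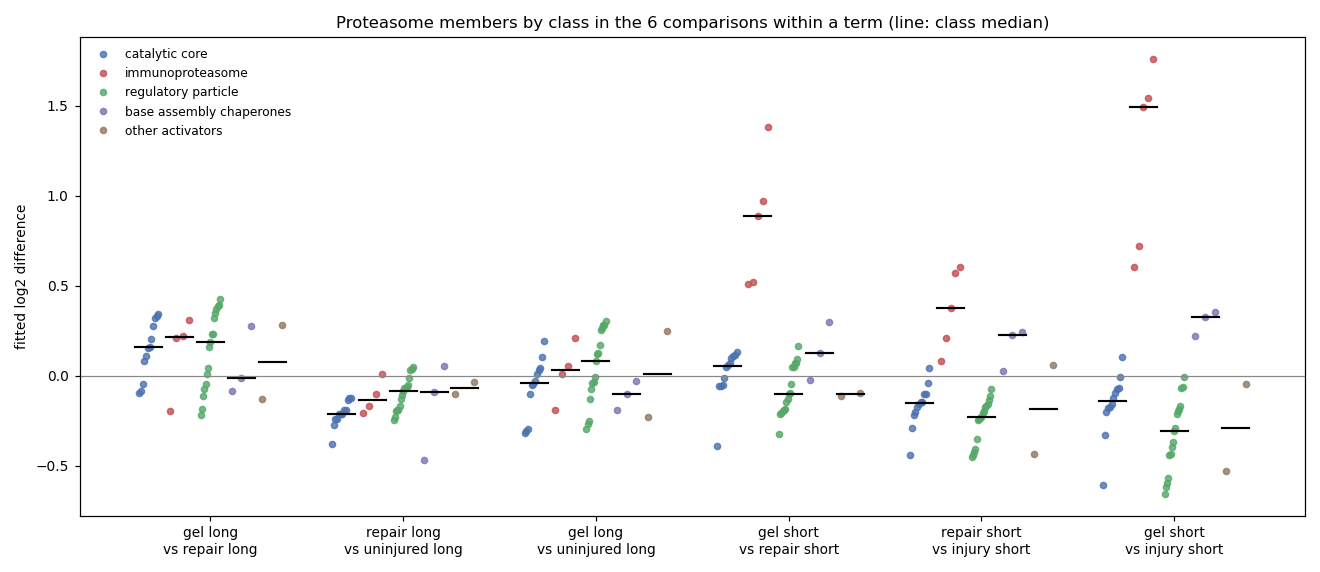
Fitted log2 difference of every member tested in the 6 comparisons within a term, by class; each point is 1 gene and each bar the class median. With edgeR and all libraries, 0 members passed an adjusted p under 0.05. In gel short vs injury short the 5 immunoproteasome genes lay between 0.60 and 1.76 and the 17 regulatory particle genes between -0.66 and -0.0076.

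Leaving out injury replicate 3 and repair replicate 4 changed the count of calls. These 2 libraries were chosen from these same data. The summed regulatory particle level was 1827 CPM in injury replicate 3, against 3030 to 3435 CPM in the other injury libraries. In repair replicate 4 it was 3015 CPM, against 2176 to 2611 CPM in the other repair libraries. Leaving both out thus moves the repair and injury means of this class apart, and the p-values do not allow for the choice. Without the 2 libraries 15 of 39 members were called in gel against injury (18.9% of all genes) and 17 of 39 in repair against injury (33.3%), but 0 of 39 in gel against repair (0.0952%). In gel against injury PSMB10 rose (1.58 ± 0.37, adjusted p = 0.0171), as did PSMB8 (1.78 ± 0.47, adjusted p = 0.0263) and PSME1 (0.70 ± 0.21, adjusted p = 0.0399). The 12 that fell there were 10 regulatory particle genes, PSMB6 and PSME4, led by PSMD12 (-0.79 ± 0.13, adjusted p = 0.00638), PSMD7 (-0.80 ± 0.14, adjusted p = 0.006903) and PSMD4 (-0.93 ± 0.17, adjusted p = 0.00748). In repair against injury all 17 calls were falls, again led by PSMD12 (-0.70 ± 0.14, adjusted p = 0.00573), and 0 of 5 immunoproteasome genes were called (PSMB10 0.87 ± 0.37, adjusted p = 0.0898). The core genes PSMA3, PSMA5, PSMB2 and PSMB6 were among these falls. With all libraries but injury replicate 3, 4 members fell in gel against injury (PSMD2, PSMD4, PSMD7 and PSMD12; 2.79% of all genes).

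Other tools and a wider fit also made calls with all libraries kept. In gel against injury DESeq2 called 5 members (5.83% of all genes), with PSMB8, PSMB9, PSMB10 and PSME2 higher and PSMD12 lower. A fit of all 34 libraries called 6 (8.39%), with PSMB8, PSMB10 and PSME2 higher and PSMD4, PSMD7 and PSMD12 lower. Limma voom, which gives libraries that stand apart less weight, called 18 in gel against injury (27% of all genes), with 5 of 5 immunoproteasome genes higher and 13 members lower. It called 14 members in repair against injury (33.4%), all lower, among them the core genes PSMA3, PSMA6, PSMB2 and PSMB6. The 4 short-term libraries with the most muscle fibre markers, injury replicates 1, 2 and 4 and repair replicate 4, also had the highest summed regulatory particle level. That sum was 3435, 3401, 1827 and 3030.0 CPM in injury replicates 1 to 4 and 3015 CPM in repair replicate 4, against 2302, 2346, 2040.0, 2008 and 2353 CPM in gel libraries. The part of muscle fibre content in these differences was not tested.

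In the long term the 3 groups lay close together, and the inducible subunits were near the lower end of detection in all of them. PSMB8 had 1.57, 0.726, 1.32, 0.783 and 3.64 CPM in gel and 1.995, 1.103, 1.703, 0.546 and 1.34 CPM in repair libraries, and 0.4996 to 3.55 CPM (median 1.4) in uninjured ones. PSMB10 had 3.25, 1.67, 1.56, 1.57 and 3.07 CPM in gel and 2.53, 2.88, 2.41, 2.26 and 2.32 CPM in repair libraries, and 1.53 to 3.78 CPM (median 2.27) in uninjured ones. The groups overlapped throughout, and for gel against repair the log2 difference was 0.22 ± 0.46, adjusted p = 0.827 for PSMB8 and -0.20 ± 0.26, adjusted p = 0.717 for PSMB10. PSMB9 was too low to be tested within the term, with 0.235 to 0.808 CPM in gel, 0.156 to 0.624 CPM in repair and 0.0803 to 1.33 CPM in uninjured libraries.

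PSME1 had 53.6, 15.7, 13.4, 16.04 and 26.6 CPM in gel and 18.95, 14.1, 27.9, 18.3 and 19.1 CPM in repair libraries, and 11.7 to 27.6 CPM (median 21.2) in uninjured ones. PSME2 had 21.98, 13.6, 14.3, 16.4 and 17.1 CPM in gel and 13.7, 14.2, 13.5, 14.6 and 14.5 CPM in repair libraries, and 13.01 to 19.4 CPM (median 16.98) in uninjured ones. In both genes gel replicate 1 was the highest of the 20 libraries, and the remaining libraries overlapped. The share of the 5 immunoproteasome genes in the summed core and immunoproteasome was 4.83 ± 1.34% in gel, 4.76 ± 0.931% in repair and 4.52 ± 0.494% in uninjured muscles (SD, n = 5, 5 and 10), differences smaller than the spread within the groups.

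Against repair alone, long-term gel muscles had 26 of 38 members above 0, with 0 called of 38 members and of all genes (0%). An unadjusted p under 0.05 was reached by 7 of 38 members and by 1648 of all 11605 genes tested. DESeq2 and limma voom called 0 members, and 7 and 0 of all genes. The largest standardised differences were in PSMB5 (0.34 ± 0.13, adjusted p = 0.302), in the ATPase PSMC3 (0.42 ± 0.17, adjusted p = 0.314) and in the lid subunit PSMD8 (0.39 ± 0.16, adjusted p = 0.324). PSMB5 had 115, 71.9, 75.5, 79.98 and 78 CPM in gel and 71.96, 68.95, 50.9, 64.2 and 69.4 CPM in repair libraries, and the groups overlapped only in that gel replicate 2 lay just below repair replicate 1. Without gel replicate 1 these values were 0.22 ± 0.10, adjusted p = 0.507 for PSMB5, 0.17 ± 0.10, adjusted p = 0.584 for PSMC3 and 0.16 ± 0.10, adjusted p = 0.599 for PSMD8. PSMB6 differed by 0.32 ± 0.15, adjusted p = 0.347, PSME1 by 0.31 ± 0.30, adjusted p = 0.6096, PSME2 by 0.21 ± 0.13, adjusted p = 0.421 and the PSMB7 entry by 0.15 ± 0.13, adjusted p = 0.5681.

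Against uninjured muscle, long-term repair muscles were slightly lower across the core by the fitted value. Of 12 core genes 12 were below 0, with a median of -0.21, where the median of all genes was near 0. Set against the uninjured muscle that carries the same animal code, each core gene was lower in 3 or 4 of 5 repair muscles. Repair replicate 3 lay below all other long-term libraries in 11 of 38 members. An unadjusted p under 0.05 was reached by 7 of 38 members and by 1360 of all 11605 genes tested. Of 38 members 0 were called, against 1.01% of all genes (117 genes). That background rests on single libraries and on the fit: it was 0 genes without repair replicate 1, without repair replicate 3 or with the animal as a block, and 319 genes without repair replicate 2. Markers of other cell types moved in the same comparison. Of 4 adipocyte markers 3 rose and 4 were above 0, with sums of 894, 204, 695, 357 and 263 CPM in repair and 155 to 265 CPM in uninjured libraries. Of 7 fibroblast markers 1 rose and 7 were above 0, with sums of 2357, 825, 1448, 1882 and 1138 CPM in repair and 397 to 1350.0 CPM in uninjured libraries. The adipocyte sum was highest in repair replicates 1 and 3, and the part of these markers in the core values was not tested. The smallest adjusted p was that of PSMD9, a base assembly chaperone, with 9.84, 12.8, 8.51, 9.6 and 11.7 CPM in repair libraries and 11.9 to 18.1 CPM (median 14.4) in uninjured ones. Its log2 difference was -0.47 ± 0.14, adjusted p = 0.138, and the groups overlapped. PSMA1, an alpha subunit, differed by -0.27 ± 0.095, adjusted p = 0.222 and the deubiquitinase PSMD14 by -0.25 ± 0.098, adjusted p = 0.298. PSMB5 differed by -0.24 ± 0.11, adjusted p = 0.412, PSMB6 by -0.12 ± 0.13, adjusted p = 0.827 and the PSMB7 entry by -0.14 ± 0.11, adjusted p = 0.743. Of the immunoproteasome genes, PSMB8 differed by -0.17 ± 0.40, PSMB10 by 0.0077 ± 0.23, PSME1 by -0.10 ± 0.26 and PSME2 by -0.20 ± 0.11, with adjusted p-values of 0.499 to 0.998.

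Long-term gel muscles against uninjured ones had 18 members above 0 and 20 below, with a median of -0.016, and 0 of 38 were called (0.00862% of all genes). An unadjusted p under 0.05 was reached by 6 members and by 1606 of all 11605 genes tested. DESeq2 and limma voom called 0 members in either comparison with uninjured muscle. Of all 11605 genes they called 234 and 12 in repair against uninjured, and 15 and 1 in gel against uninjured. PSMA1 had 54.4, 67.5, 56.9, 73.2 and 71.9 CPM in gel libraries and 71.4 to 91.3 CPM (median 79.5) in uninjured ones, a log2 difference of -0.32 ± 0.096, adjusted p = 0.325. PSMD14 had 38.9, 31.8, 33.7, 38.9 and 43.3 CPM in gel libraries and 41.9 to 51.7 CPM (median 45.1) in uninjured ones (-0.29 ± 0.098, adjusted p = 0.325), and PSMA2 differed by -0.30 ± 0.11, adjusted p = 0.325. The groups overlapped in all 3. When each operated muscle was set against the uninjured muscle that carries the same animal code, 4 of 39 members were lower in 5 of 5 gel muscles. The mean log2 differences were -0.40 ± 0.44 for PSMA3, -0.36 ± 0.29 for PSMA1, -0.32 ± 0.21 for PSMD14 and -0.27 ± 0.25 for PSMD9 (SD). In the repair muscles PSMA1, PSMD14 and PSMD9 were lower in 4, 3 and 4 of 5. There PSMD13 (-0.16 ± 0.17), PSME2 (-0.20 ± 0.11), PSME4 (-0.18 ± 0.11) and the PSMB7 entry (-0.14 ± 0.11) were lower in 5 of 5, and PSMB9 (0.30 ± 0.15) was higher in 5 of 5. These counts are a description with no test, and they were not made over all genes. PSMB9 had 2 to 7 reads in each long-term repair library. Fitting the animal as a block called 0 members and 0 of all genes in either comparison. Among the standard catalytic subunits, PSMB5 differed by 0.10 ± 0.11, PSMB6 by 0.20 ± 0.13 and the PSMB7 entry by 0.014 ± 0.11. PSMB8, PSMB10, PSME1 and PSME2 differed by 0.052 ± 0.40, -0.19 ± 0.23, 0.21 ± 0.25 and 0.0076 ± 0.11 in that order, with adjusted p-values of 0.694 to 0.977.

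Gel replicate 1 of the long term stood apart in both directions. It lay above all 19 other long-term libraries in 21 members and below them in 8. PSMD2, a scaffold of the base, had 538 CPM there, against 247 to 256 CPM in the other 4 gel libraries. The ATPase PSMC5 had 316 CPM against 161 to 190.2 CPM, and PSME3 had 166 CPM against 76.7 to 82.0 CPM. On the low side the ATPase PSMC6 had 51.7 CPM against 143 to 156 CPM, the lid subunit PSMD12 had 62.3 CPM against 159 to 188 CPM, and PSME4 had 69.7 CPM against 150.5 to 162 CPM. Subunits of the same particle lay on opposite sides in this library. It also had the highest muscle fibre sum of all 34 libraries, 291900 CPM. The part of muscle fibre content in this pattern was not tested. Without this library PSME1 stood at -0.15 in gel against repair.

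**Figure D4:**
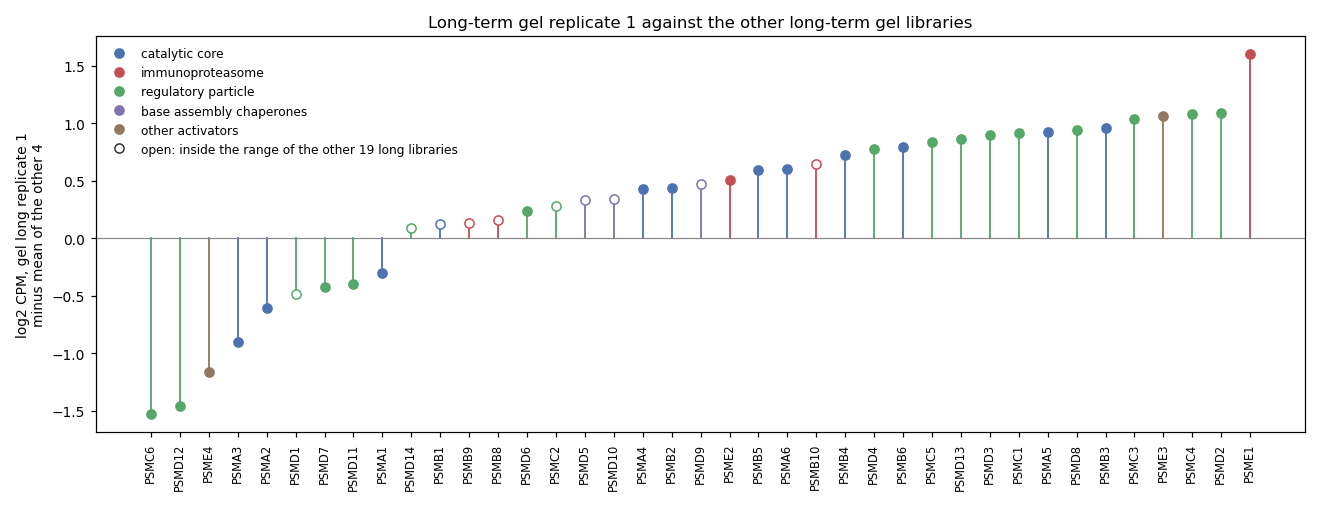
Log2 CPM of each member in long-term gel replicate 1 minus the mean of the other 4 long-term gel libraries, ordered by size and coloured by class; filled points lie outside the range of all 19 other long-term libraries. PSMC6, PSMD12 and PSME4 lay more than 1 below the other gel libraries, and PSMC3, PSME3, PSMC4, PSMD2 and PSME1 more than 1 above.

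Between the terms the differences were far larger, but term goes with depth and with the kind of file, as given above, and the differences cannot be told apart from these. In long-term against short-term gel muscles 22 of 39 members were called (48.3% of all genes), 8 higher and 14 lower. In long-term against short-term repair muscles 22 of 39 were called (46.2%), 4 higher and 18 lower. The share of members called, 56.4% in each, stands beside those shares of all genes. All 5 immunoproteasome genes fell in both, with medians of -2.54 for gel and -1.86 for repair, where the medians of all genes were -0.086 and -0.11.

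In gel muscles the log2 difference was -2.93 for PSMB9, -2.91 for PSMB10, -2.54 for PSMB8, -1.17 for PSME2 and -1.08 for PSME1, with adjusted p-values from 1.66e-08 (PSMB10) to 0.00173 (PSME1). In repair muscles it was -1.89 for PSMB10, -1.89 for PSMB9, -1.86 for PSMB8, -0.95 for PSME1 and -0.93 for PSME2, with adjusted p-values from 1.85e-05 (PSMB10) to 0.00918 (PSMB9). For PSMB8, PSMB9, PSMB10 and PSME2 the long-term libraries lay below all short-term ones in both treatments, while PSME1 overlapped in each. Of all 39 members, 8 lay lower and 5 higher without overlap in gel, and 16 lower and 3 higher in repair. The share of all genes without overlap between terms was not counted, so such separations, here and for the members below, have no background beside them. The 3 markers of all leukocytes summed to 4.502, 4.72, 5.59, 3.44 and 5.25 CPM in long-term gel libraries and 10.6, 4.41, 10.2, 5.39 and 3.03 CPM in long-term repair ones, below the short-term gel libraries and all short-term repair libraries but replicate 4. Of 10 macrophage markers 9 fell in gel and 7 in repair, and of 7 fibroblast markers 6 fell in each. Of the 9 T and NK markers, CD3G was at 0 counts throughout the long-term repair and uninjured groups. The part of these markers in the falls was not tested.

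The standard core split. PSMB5 fell in both treatments (-0.89 ± 0.16, adjusted p = 4.11e-05 in gel and -1.17 ± 0.16, adjusted p = 1.05e-06 in repair), whereas PSMB6 was called in neither (0.32 ± 0.18, adjusted p = 0.135 and 0.049 ± 0.18, adjusted p = 0.839). The PSMB7 entry fell in gel (-0.40 ± 0.14, adjusted p = 0.0237) and was not called in repair (-0.28 ± 0.14, adjusted p = 0.112). The largest fall of the core was that of PSMA2, with 14.03, 19.01, 21.6, 22.5 and 23.8 CPM in long-term gel libraries against 61.3, 71.9, 57.2, 54.6 and 13.7 CPM in short-term ones. In repair muscles PSMA2 had 20.4, 21.9, 20.01, 20.6 and 23.4 CPM in long-term and 64.5, 67.5, 70.1, 84.4 and 60.5 CPM in short-term libraries. The repair groups lay far apart, and the gel groups overlapped only through short-term replicate 5. The log2 difference of PSMA2 was -1.36 ± 0.24, adjusted p = 3.49e-05 in gel and -1.71 ± 0.24, adjusted p = 1.73e-06 in repair. PSMB1 and PSMB4 also fell in both, with -0.82 ± 0.14, adjusted p = 3.06e-05 for PSMB4 and -0.71 ± 0.13, adjusted p = 6.37e-05 for PSMB1 in repair. PSMA3 fell in gel only by the threshold, and PSMB3 (-0.69 ± 0.15, adjusted p = 0.000679) and PSMA5 in repair only by the threshold.

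The regulatory particle split as well. The ATPase PSMC1 fell in both treatments, with 124, 71.4, 58.2, 58.5 and 76.5 CPM in long-term and 164, 183, 161, 144 and 136 CPM in short-term gel libraries, and 63.7, 61.2, 70.9, 59.6 and 79.4 CPM in long-term and 178, 162, 179, 181 and 164 CPM in short-term repair libraries. Its groups did not overlap, with differences of -1.02 ± 0.16, adjusted p = 8.93e-06 and -1.37 ± 0.16, adjusted p = 9.14e-08 in gel and repair. The lid subunits PSMD11 and PSMD12 rose in both: PSMD11 by 0.63 ± 0.12, adjusted p = 0.000111 in gel and 0.54 ± 0.12, adjusted p = 0.000634 in repair, and PSMD12 by 0.77 ± 0.18, adjusted p = 0.000886 and 0.75 ± 0.18, adjusted p = 0.00135. PSMD11 had 142, 177, 195, 184 and 194 CPM in long-term and 119, 111, 109, 120.1 and 117 CPM in short-term gel libraries. The lid subunit PSMD6 fell in both (-0.40 ± 0.15, adjusted p = 0.0252 in gel and -0.53 ± 0.15, adjusted p = 0.00477 in repair). In gel alone the threshold was also passed upwards by PSMD1, PSMD2, PSMD3 and PSMD7, and in repair alone downwards by PSMC3, PSMC4 and PSMC5. The test of the difference between the treatments, given below, called 0 of them. With only the gel groups in the fit, PSMD2, PSMD3 and PSMD7 lost their calls.

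The assembly chaperone PSMD10, also known as gankyrin, had 5.65, 4.43, 3.13, 4.62 and 5.58 CPM in long-term gel libraries against 14.1, 16.1, 25.8, 10.8 and 9.99 CPM in short-term ones. In repair muscles it had 5.12, 5.09, 4.75, 5.46 and 3.84 CPM in the long and 12.4, 14.1, 10.7, 10.98 and 15.7 CPM in the short term. The terms did not overlap in either treatment, and PSMD10 fell in both (-1.72 ± 0.21, adjusted p = 1.43e-07 in gel and -1.39 ± 0.21, adjusted p = 5.05e-06 in repair). PSMD9 also fell in both, and PSMD5 was called in neither. The alternative activators rose: PSME3 by 0.83 ± 0.15, adjusted p = 5.81e-05 in gel and 0.37 ± 0.15, adjusted p = 0.0429 in repair, and PSME4 by 0.67 ± 0.20, adjusted p = 0.006695 and 0.64 ± 0.20, adjusted p = 0.00952. Without one library at a time, the calls of PSME3 in repair held in 3 of 10 fits and those of PSMC4 in repair in 5 of 10. In gel PSMD9 and the PSMB7 entry were called in 5 of 10 fits, PSMD6 in 7, PSMA3 in 8 and PSMD3 in 9. PSMA3 lost its call without long-term gel replicate 1 or short-term gel replicate 5, and PSMD3 without long-term gel replicate 1.

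**Figure D5:**
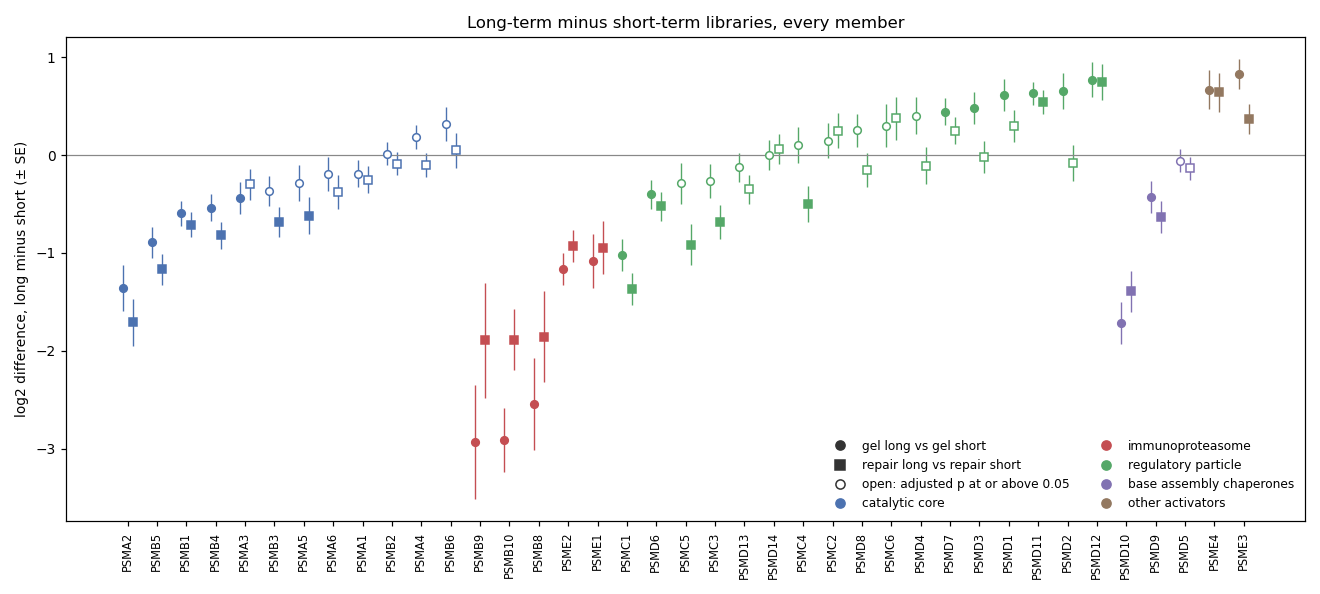
Fitted log2 difference of every member, long-term minus short-term libraries, for gel (circles) and repair (squares) muscles, with its standard error and coloured by class; open symbols did not pass an adjusted p under 0.05. The 5 immunoproteasome genes lay between -0.93 and -2.93, and regulatory particle genes on both sides of 0, from -1.37 for PSMC1 to 0.77 for PSMD12.

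Whether the gel effect itself differed between terms was tested as the gel minus repair difference of the long term less that of the short term. It was called in 0 of 39 members (0.0155% of all genes). DESeq2 and limma voom called 0 members as well, and 28 and 5 of all genes. An unadjusted p under 0.05 was reached by 6 of 39 members and by 1646 of all 12935 genes tested. The immunoproteasome genes had a median of -0.69, with PSMB10 at -1.02 ± 0.43 (adjusted p = 0.329), PSMB9 at -1.04 ± 0.83 (adjusted p = 0.626) and PSMB8 at -0.69 ± 0.64 (adjusted p = 0.689). The regulatory particle had a median of 0.32 and the core one of 0.27, against 0.065 for all genes. The smallest p of a member was that of PSMD2, at 0.74 ± 0.26 (adjusted p = 0.275), followed by PSMB10 and the ATPase PSMC4 (0.60 ± 0.26, adjusted p = 0.3405). PSME1 and PSME2 stood at -0.14 ± 0.38 and -0.24 ± 0.23, PSMB5 at 0.28 ± 0.22, PSMB6 at 0.27 ± 0.25 and the PSMB7 entry at -0.12 ± 0.20.

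Genes that work with the proteasome were counted as whole lists. In the 6 comparisons within a term edgeR called 0 of their genes. The 7 antigen presentation genes tested were 7 of 7 above 0 in gel against injury, with a median of 0.79, and 6 of 7 in repair against injury, with a median of 0.69. TAP1, the peptide transporter whose gene lies between PSMB9 and PSMB8, differed in gel against injury by 1.24 ± 0.33, adjusted p = 0.145, and NLRC5, an activator of MHC class I genes, by 1.86 ± 0.58, adjusted p = 0.169. In gel against repair 5 of 7 were above 0, with TAP1 at 0.54 ± 0.30, adjusted p = 0.546 and NLRC5 at 1.19 ± 0.53, adjusted p = 0.469. Of 12 interferon signalling genes tested, 9 were above 0 in gel against injury (median 0.50), 10 in repair against injury (0.48) and 5 in gel against repair (-0.15). The chemokine CXCL10 differed by 4.59 ± 0.93, adjusted p = 0.124 in gel against injury.

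The 9 regulators of subunit transcription, among them NFE2L1, which drives standard subunit genes when proteasomes are blocked, were 8 of 9 below 0 in gel against injury (median -0.25). NFE2L1 itself differed by -0.38 ± 0.22, adjusted p = 0.378. The muscle ubiquitin ligases FBXO32 and TRIM63, which mark fibres for breakdown in atrophy, differed by -0.78 ± 0.51, adjusted p = 0.432 and -0.36 ± 0.32, adjusted p = 0.564 in the same comparison, with 5 of 7 in their list below 0. The 5 proteasome-associated genes tested were all below 0 in gel against injury (median -0.56), as were all 6 autophagy genes (-0.43). Ubiquitin and shuttle genes were 6 of 9 below 0 (-0.49), heat shock genes 4 of 5 (-0.37), and core assembly factors 2 of 6 (0.12).

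Between the terms, 2825 genes rose and 3427 fell of all 12935 tested in gel, and 2359 rose and 3613 fell in repair, so the counts of the lists stand beside a background in which such calls are common. Antigen presentation genes fell in 5 of 7 cases in gel and 6 of 7 in repair, with 0 rises in either. Interferon signalling genes fell in 6 and rose in 3 of 12 in gel, and fell in 7 and rose in 0 in repair. Core assembly factors fell in 4 of 6 in both, with 1 rise in gel. Regulators of subunit transcription rose in 6 of 9 in gel and 4 of 9 in repair, with 0 falls. The muscle ubiquitin ligases rose in 4 and fell in 1 of 7 in gel, and rose in 3 and fell in 0 in repair. Proteasome-associated genes rose in 3 of 5 in gel and 2 of 5 in repair, with 0 falls. Ubiquitin and shuttle genes rose in 5 and fell in 1 of 9 in gel, and rose in 3 and fell in 1 in repair. Autophagy genes rose in 4 and fell in 0 of 6 in gel, and rose in 1 and fell in 2 in repair, a difference that was not tested for the list. Heat shock genes rose in 2 and fell in 2 of 5 in gel, and rose in 1 and fell in 2 in repair.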

How the data were processed

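Bulk RNA of rabbit supraspinatus muscle was sequenced in 34 libraries, after RNA extraction and library preparation at a commercial lab, per the labels' protocols. The deposited files hold raw counts per gene. The submitters' processing notes name OryCun2.0, edgeR and STAR, with no versions. Of 18210 entries per file, 26 with date names were dropped (up to 0.163% of the counts) and 7 symbols that occurred in 15 entries were each added up, which left 18176 genes. Names of LOC entries came from RefSeq (mOryCun1.1), where 2379 of 3500 matched and 578 were given a symbol. Sequences were not used here, since no sequence or genome of the files' build was at hand.

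Counts were tested with edgeR 4.0.16 (R 4.3.3; robust quasi-likelihood, TMM, filterByExpr, Benjamini-Hochberg over all genes tested, adjusted p under 0.05). Fits covered 13526 genes in the short term (14 libraries), 11605 genes in the long term (20) and 12935 genes for comparisons between terms (34). Fold changes are on the log2 scale with their standard errors, and figures of log2 CPM use a pseudocount of 0.5. DESeq2 1.42.0, limma 3.58.1 (voom with sample quality weights), other size factors, filters, sample sets, blocks and left-out libraries were the alternatives. Marker and pathway lists, members and alternatives were chosen with earlier results of these data known. Named singly were the immunoproteasome genes, the standard catalytic subunits, and per comparison the called members (at most 10, by p) or the 3 with the smallest p; other members are named to show a class, chosen after their values were seen. The fits were tested on simulated data. Libraries of a group differed by more than sampling noise in all 91 pairs compared. Uninjured and operated muscles were paired by animal codes in the deposited files' names, which the labels do not explain.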

Additional observations from a re-analysis of the deposited data

Results flagged for a closer look

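A library was marked where its level of a member stood apart from the rest of its own group by Dixon's criterion at the 95% level. Over 234 groups of a gene tested, 31 were marked, where chance marks about 1 in 20, or 11.7.

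Long-term gel replicate 1 made up 19 of the 31. Its levels were lower than those of the other 4 gel libraries for PSMA3 (50.9 CPM), PSMC6 (51.7 CPM), PSMD12 (62.3 CPM) and PSME4 (69.7 CPM). They were higher for the core genes PSMA4 (99.6 CPM), PSMB3 (105.5 CPM), PSMB4 (78.8 CPM), PSMB5 (115.5 CPM) and PSMB6 (246 CPM). Among the base genes they were higher for PSMC1 (124 CPM), PSMC3 (223 CPM), PSMC4 (138 CPM), PSMC5 (316 CPM), PSMD2 (538 CPM) and PSMD4 (283 CPM). Among the lid genes they were higher for PSMD3 (368 CPM), PSMD8 (219 CPM) and PSMD13 (153.5 CPM), and the activator PSME3 stood at 166 CPM.

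Short-term injury replicate 3 was lower than the other 3 injury libraries for PSMB1 (82.3 CPM), PSMC3 (111 CPM), PSMD7 (113 CPM) and PSMD13 (82.7 CPM), and higher for PSMB10 (7.77 CPM). Short-term gel replicate 4 stood apart in PSMB1 (102 CPM) and PSMB4 (63.2 CPM), short-term repair replicate 4 in PSMD3 (246 CPM) and short-term repair replicate 3 in PSME2 (42.1 CPM). Among the uninjured muscles, replicate 10 was the highest for PSMB8 (3.55 CPM) and PSMB9 (1.33 CPM), and replicate 4 for PSMD2 (337 CPM).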

How the results depend on the processing

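Calls of members between short-term groups depended on the tool and on single libraries. In gel against injury, where edgeR called 0, DESeq2 called 5 members, a fit of all 34 libraries 6, limma voom with sample quality weights 18, and edgeR without the 2 libraries that stand apart 15. Leaving out each library gave 0 to 4, with 4 without injury replicate 3. In repair against injury limma voom called 14 and edgeR without the 2 libraries, which were chosen from these same data, 17. The cause was not tested. The immunoproteasome median in gel against injury stayed above 0 with each library left out (1.05 without gel replicate 3 to 1.64 without gel replicate 4).

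Between terms the immunoproteasome median ranged over -3.06 to -2.24 in gel (lowest without long-term replicate 5, highest without short-term replicate 3) and -1.995 to -1.48 in repair (highest without short-term replicate 1). The regulatory particle median in gel between terms was 0.053 with voom and 0.13 to 0.30 with each library left out, the lowest without long-term replicate 1. For the gel effect between terms voom gave medians of 0.079 for the core and 0.14 for the regulatory particle. Leaving out libraries gave 0.081 to 0.31 for the core, 0.15 to 0.37 for the regulatory particle (both lowest without long-term gel replicate 1) and -1.18 to -0.38 for the immunoproteasome, lowest without long-term gel replicate 5.

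In the long term the sign of small differences turned. The immunoproteasome median was -0.17 with voom and -0.13 with the animal as a block in gel against repair, and -0.36 with voom in gel against uninjured. In gel against repair voom and the block gave -0.12 and -0.12 for PSMB8 and -0.23 and -0.14 for PSME1, and voom gave -0.018 for the PSMB7 entry. In repair against uninjured PSMB10 was -0.00048 with DESeq2, -0.0044 with no filter, -0.010 with only the groups compared and -0.0070 with all libraries, and PSME1 was 0.041 with the block. In gel against uninjured voom gave -0.14 for the PSMB7 entry, -0.012 for PSMB5, -0.43 for PSMB8, -0.29 for PSME1 and -0.14 for PSME2. The animal as a block gave -0.033 for the PSMB7 entry, -0.14 for PSMB8, -0.10 for PSME1 and -0.010 for PSME2, and as a random effect -0.015 for the PSMB7 entry, -0.068 for PSMB8 and -0.0067 for PSME2. With no filter PSME2 was -0.0013. In the short term the PSMB7 entry was -0.061 with voom and -0.12 without the 2 libraries in gel against injury, and the gel effect of PSMB6 was -0.014 with voom.

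Leaving out each library turned these signs as well. In gel against repair, long term, the ranges were -0.016 to 0.20 for the PSMB7 entry, -0.34 to 0.43 for PSMB8 and -0.15 to 0.48 for PSME1. In repair against uninjured they were -0.054 to 0.085 for PSMB10 and -0.37 to 0.054 for PSMB8. In gel against uninjured they were -0.16 to 0.063 for the PSMB7 entry, -0.031 to 0.15 for PSMB5, -0.51 to 0.29 for PSMB8, -0.26 to 0.37 for PSME1 and -0.10 to 0.068 for PSME2. In short-term gel against repair PSMB6 ranged over -0.015 to 0.25. In repair against injury PSME1 ranged over -0.11 to 0.19 and PSME2 over -0.057 to 0.31. In gel against injury the PSMB7 entry ranged over -0.12 to 0.13 and PSMB5 over -0.31 to 0.051. PSMB6 in repair between terms ranged over -0.058 to 0.20, and the gel effect of PSME1 over -0.63 to 0.022.

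Replicate numbers of the titles did not pair the samples (correlations of -0.387 to 0.412 over 38 pairs, 9 above 0.1), nor did the animal codes in every pair (-0.19 to 0.322 over 10 pairs, 6 above 0.1). With the replicate number as a block, 20 members were called between terms in repair (5294 of all 12935 genes) and 20 in gel (5716 genes). In each comparison within a term, 0 members and 0 of all genes were called with it. Another 735 recomputed counts and medians stayed within 1.5 times (counts) or within the spread between replicates (medians). Among the genes that the rule named singly in a comparison, 31 recomputed differences newly passed the threshold, and 6, all of the PSMB7 entry in gel between terms, no longer did. Other members lost calls between terms too, only in part as given with their values. With only the groups compared in the fit, 16 members were called between terms in gel (4950 of all 12276 genes), against 22 (6252 of all 12935 genes). PSMD2, PSMD3, PSMD7, PSMA3, PSMD6 and PSMD9 lost their calls in that fit.

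PSMB9 and PSMB8 rest on few reads in the long term. Term cannot be told apart from depth.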
